A study of Oryctolagus cuniculus with 24 samples.

Results

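The genes that load peptides onto MHC class I molecules, those of the major histocompatibility complex, were followed in rabbit peripheral blood mononuclear cells (PBMCs). The set of 7 genes was defined by name, with no threshold on a measured value, and comprises B2M, TAP1, TAP2, TAPBP, CANX, CALR and PDIA3. Probes were assigned to them by gene name, RefSeq accession or gene number, and 4 of the 7 had a probe: B2M with 5 probes, PDIA3 with 2, and TAP1 and CANX with 1 each, among 28890 genes measured on the array. No probe was found under the names TAP2, TAPBP and CALR, and these 3 genes were not analysed here.

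Class I molecules carry fragments of proteins made inside a cell to its surface, where cytotoxic T cells inspect them. Proteasomes cut the proteins, and the transporter associated with antigen processing, a pair of TAP1 and TAP2, pumps the peptides into the endoplasmic reticulum (ER). The heavy chain folds there with the help of the chaperone calnexin (CANX), pairs with the light chain beta-2-microglobulin (B2M), and waits in the peptide loading complex with calreticulin (CALR), tapasin (TAPBP) and the thiol oxidoreductase ERp57 (PDIA3). TAP1 and the immunoproteasome subunits are well known interferon-gamma targets, whereas CANX and PDIA3 also serve the folding of many other glycoproteins.

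PBMCs, mainly lymphocytes and monocytes, came from the blood of 4 rabbits of the New Zealand White breed, all adult females, which the labels number 1, 2, 4 and 5. They were mock-stimulated, stimulated with lipopolysaccharide (LPS) at 1 µg/mL, or with phorbol myristate acetate (PMA) at 10 ng/mL and ionomycin at 1 µg/mL, and harvested after 4 h (T4) or 24 h (T24). LPS is a bacterial membrane component sensed mainly by myeloid cells and B cells, and PMA with ionomycin bypasses surface receptors by activating protein kinase C and raising calcium. Each of the 6 groups held 1 array per rabbit, or 24 one-colour arrays on 3 slides, and every group was present on all 3 slides.

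Probes of the members are shown because their levels rest on such stretches of 60 bases and not on whole transcripts. All probes of TAP1, CANX and PDIA3 are given, and of the 5 averaged for B2M the outermost pair. Positions are those of the files on oryCun2, and all mapped member probes lie on the minus strand. The TAP1 probe lies at chr12:23363252-23363311 and covers bases 1901 to 1960 of the transcript. The CANX probe covers bases 1174 to 1233 of its transcript and has no genome position in the files. The 5 B2M probes are tiled, each overlapping the next, between bases 184 and 366 of the transcript, and the first and last of them are at chr17:27611471-27611530 and chr17:27610609-27611407, the latter interval of 799 bases being longer than the probe. The PDIA3 probes, at chr17:28566886-28567164 and chr17:28566826-28566885, cover bases 1389 to 1448 and 1449 to 1508 and share no base.
TAP1, probe A_04_P050932: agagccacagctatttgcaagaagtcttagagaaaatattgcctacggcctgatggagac
CANX, probe A_04_P057327: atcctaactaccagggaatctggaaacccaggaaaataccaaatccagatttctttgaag
B2M, first probe A_04_P003705: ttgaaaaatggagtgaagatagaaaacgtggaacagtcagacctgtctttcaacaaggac
B2M, last probe A_04_P003701: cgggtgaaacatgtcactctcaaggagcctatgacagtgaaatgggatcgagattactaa
PDIA3, probe A_04_P067638: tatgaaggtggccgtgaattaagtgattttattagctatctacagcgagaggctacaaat
PDIA3, probe A_04_P067637: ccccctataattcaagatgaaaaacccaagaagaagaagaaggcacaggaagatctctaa

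Levels are log2 median signals after subtraction of the array median, so that a difference of 1 is a 2-fold change, and the level of one gene is not set against that of another because probes differ in brightness. A gene was called differentially expressed (DE) where limma gave a Benjamini-Hochberg adjusted p under 0.05, with all 28890 genes in the adjustment. Values listed for single rabbits are in the order 1, 2, 4, 5. All 4 genes were well above background on all 24 arrays, and none of their spots was saturated. Of all non-control spots, 51.4 to 62.3% were well above background on an array. In such mixed cells, fewer cells of a type and less RNA per cell cannot be told apart. The p-values rest on the spread between the 4 rabbits within a group, pooled over the 6 groups and moderated over all genes. They leave out the pairing of cultures from the same rabbit, except where the rabbit is named as a block.

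TAP1 was the only member called DE, after PMA-Ionomycin stimulation at T24, where it was up-regulated 2.73-fold over mock-stimulated PBMCs (log2 difference 1.45 ± 0.38, SE, adjusted p = 0.00388, limma). B2M, CANX and PDIA3 were not called in that comparison. No member was called after LPS at either time, after PMA-Ionomycin at T4, or between mock-stimulated samples of both times. Of all genes, 33.6% were called for PMA-Ionomycin at T24, against 1 of 4 members (25%), 22.8% for PMA-Ionomycin at T4, 1.02 and 1.23% for LPS at T4 and T24, and 12.5% for mock at T24 versus T4. The share of members called was thus no higher than that of the whole array in any of these comparisons. With an unadjusted p under 0.05, limma gave CANX after LPS at T4, no member after LPS at T24 or PMA-Ionomycin at T4, TAP1 and CANX between the mock times, CANX in the interaction of LPS and time, and none in that of PMA-Ionomycin and time. At each time, both stimulations were set against the same mock-stimulated cultures.

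**Figure D1:**
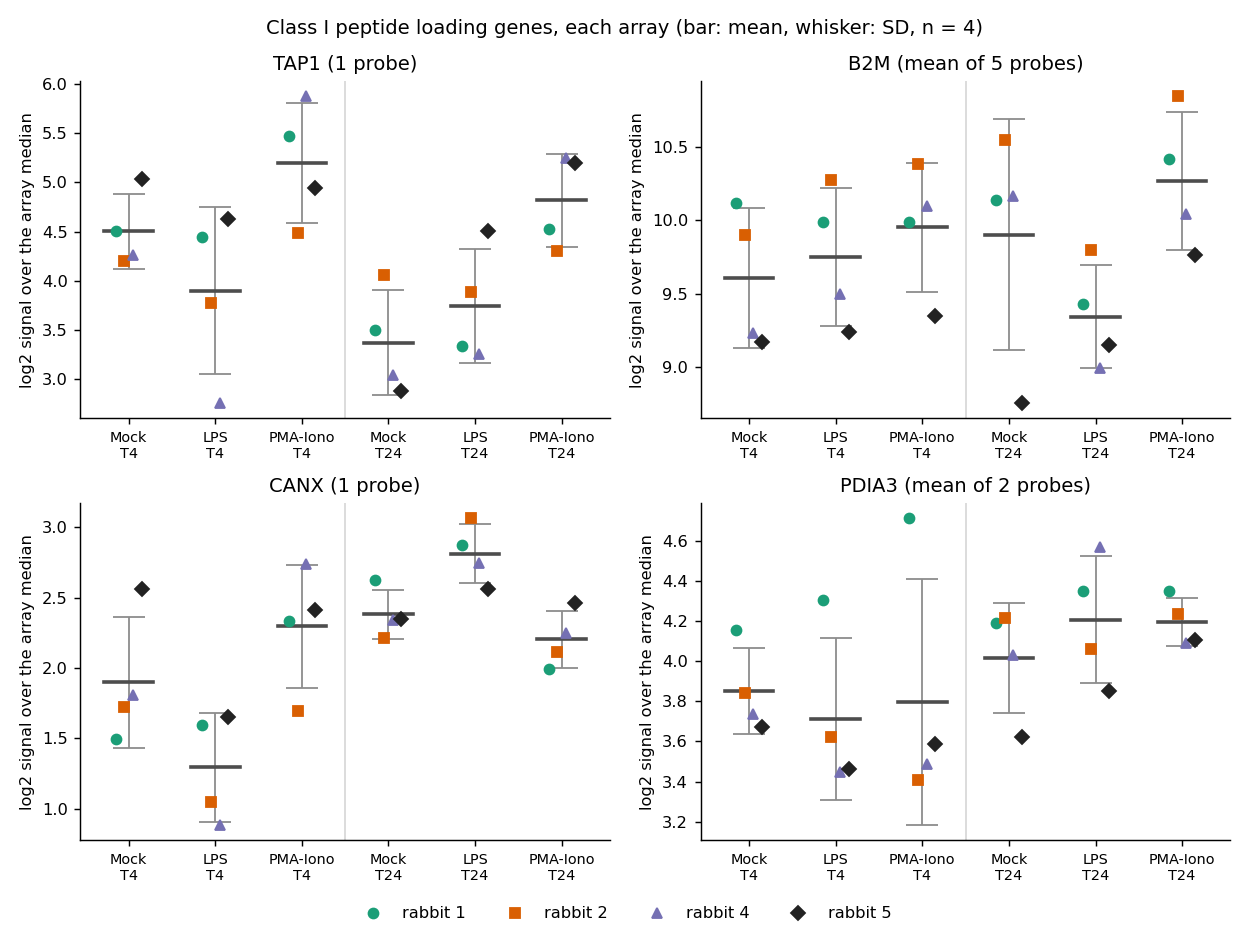
Log2 signal over the array median (vertical axis) of TAP1, B2M, CANX and PDIA3 in each of the 6 groups, with 1 point per rabbit, the mean as a horizontal bar and the SD as whiskers (n = 4). TAP1 after PMA-Ionomycin at T24 lies between 4.30 and 5.24, above all mock-stimulated samples of T24 at 2.87 to 4.06, whereas the groups of PDIA3 overlap throughout.

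TAP1 supplies one of the paired subunits of the peptide pump. At T24 its level in mock-stimulated PBMCs was 3.50, 4.06, 3.04 and 2.87. After PMA-Ionomycin it was 4.53, 4.30, 5.24 and 5.20, in the order of the rabbits. The groups did not overlap, and the level was higher after PMA-Ionomycin in 4 of 4 rabbits, although the difference in rabbit 2 was 0.24 against 1.03 to 2.32 in the others. On the 3 slides taken singly the difference was 1.57, 0.80 and 1.16, with 1 or 2 arrays of a group on a slide.

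At T4, TAP1 in mock-stimulated PBMCs was 4.50, 4.20, 4.27 and 5.04. After PMA-Ionomycin it was 5.48, 4.49, 5.88 and 4.94. These groups overlapped, rabbit 5 was slightly lower after stimulation, and the log2 difference of 0.69 ± 0.38 (SE, adjusted p = 0.24) did not pass the test. The change in the PMA-Ionomycin effect from T4 to T24 was 0.76 ± 0.54 (SE, 95% interval -0.35 to 1.87, adjusted p = 0.408), a test in which 22.5% of all genes were called and no member was. The T24 effect of TAP1 is therefore not shown to differ from that at T4.

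The mock-stimulated level of TAP1 itself was lower at T24 than at T4 in 4 of 4 rabbits, by 0.14 to 2.17. The groups did not overlap, and the log2 difference of -1.14 ± 0.38 (SE) had an adjusted p of 0.0521. With the rabbit as a block, which uses the pairing of cultures from the same animal, the adjusted p was 0.0427. Over the 6 groups the order of mean levels was PMA-Ionomycin T4 (5.20 ± 0.61, SD, n = 4), PMA-Ionomycin T24 (4.82 ± 0.47), mock T4 (4.50 ± 0.38), LPS T4 (3.90 ± 0.85), LPS T24 (3.74 ± 0.58) and mock T24 (3.37 ± 0.53). Each neighbouring pair in this order overlapped.

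After LPS, TAP1 at T4 was 4.44, 3.77, 2.75 and 4.63. It was below mock in 4 of 4 rabbits, with a log2 difference of -0.60 ± 0.38 (SE, adjusted p = 0.513), and rabbit 4 alone differed by 1.51. The LPS T4 array of rabbit 4 had the lowest share of spots well above background (51.4%) and the lowest median signal (59) of the 24 arrays. Without rabbit 4 the difference was -0.30 for TAP1 and, in the same comparison, -0.50 for CANX. At T24 the values were 3.33, 3.88, 3.25 and 4.50, and the mean difference of 0.37 ± 0.38 (SE, adjusted p = 0.864) was carried by rabbit 5, without which it was -0.044.

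**Figure D2:**
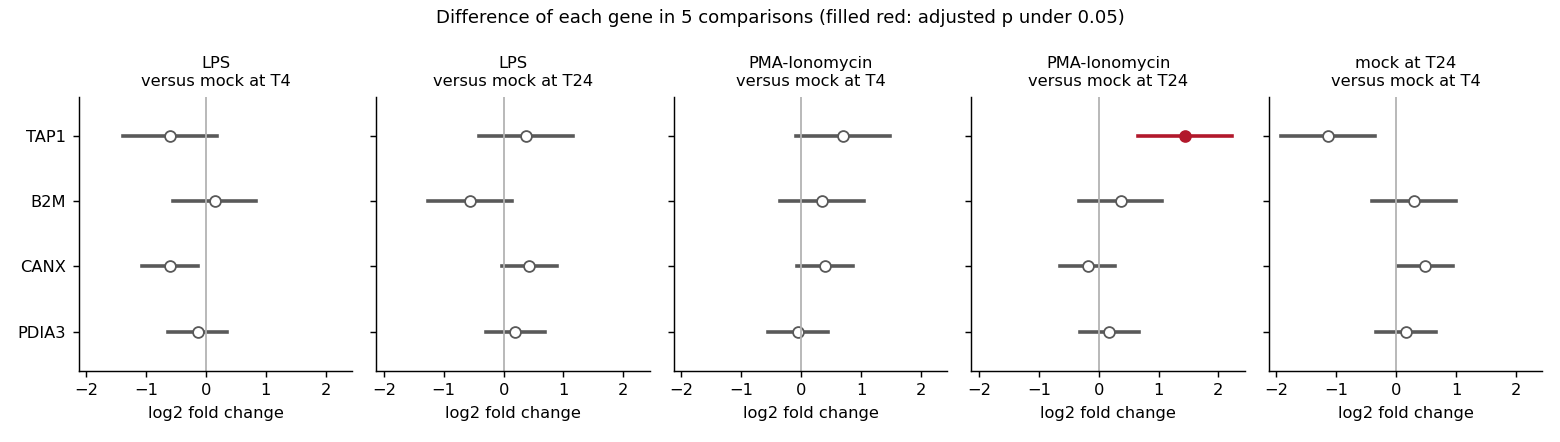
Log2 fold change (horizontal axis) of TAP1, B2M, CANX and PDIA3 in 5 comparisons, one per panel, with 95% intervals as bars and 4 rabbits in each group. The only filled point is TAP1 after PMA-Ionomycin at T24, at 1.45 with an interval of 0.66 to 2.24, while the other intervals that leave out 0, TAP1 and CANX between mock times and CANX after LPS at T4, did not pass the adjustment.

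CANX encodes calnexin, the membrane chaperone that holds newly made heavy chains. After LPS its position against mock turned between the times, but neither comparison passed the test. At T4 the mock-stimulated level was 1.49, 1.73, 1.81 and 2.56, against 1.60, 1.05, 0.89 and 1.65 after LPS. Rabbits 2, 4 and 5 were lower after LPS, rabbit 1 was not, and the log2 difference was -0.60 ± 0.22 (SE, adjusted p = 0.193).

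At T24, CANX in mock-stimulated PBMCs was 2.63, 2.21, 2.34 and 2.35, against 2.87, 3.06, 2.75 and 2.57 after LPS. It was higher after LPS in 4 of 4 rabbits, by 0.21 to 0.85, with a mean difference of 0.43 ± 0.22 (SE, adjusted p = 0.514). The interaction of LPS and time was 1.03 ± 0.31 (SE, 95% interval 0.38 to 1.68) and positive in 4 of 4 rabbits, with an adjusted p of 0.0865 in a test that called 1.95% of all genes. With the rabbit as a block its adjusted p was 0.0473.

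For PMA-Ionomycin, CANX was 2.34, 1.70, 2.74 and 2.41 at T4, with a difference from mock of 0.40 ± 0.22 (SE, adjusted p = 0.253). Rabbits 1 and 4 were higher than their mock cultures by over 0.8 and rabbits 2 and 5 were slightly lower. At T24 it was 1.99, 2.11, 2.25 and 2.46, with a difference of -0.18 ± 0.22 (SE, adjusted p = 0.659). Between mock-stimulated samples the T24 level was higher by 0.49 ± 0.22 (SE, adjusted p = 0.194). The order of mean levels was LPS T24 (2.81 ± 0.21, SD, n = 4), mock T24 (2.38 ± 0.17), PMA-Ionomycin T4 (2.30 ± 0.44), PMA-Ionomycin T24 (2.20 ± 0.20), mock T4 (1.90 ± 0.46) and LPS T4 (1.29 ± 0.38), and each neighbouring pair overlapped.

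B2M, the light chain shared by all class I molecules, gave bright signals and no called difference. Its mean level ran from 9.34 ± 0.35 (SD, n = 4) after LPS at T24 to 10.27 ± 0.47 after PMA-Ionomycin at T24, with mock at 9.61 ± 0.48 at T4 and 9.90 ± 0.79 at T24, LPS T4 at 9.75 ± 0.47 and PMA-Ionomycin T4 at 9.95 ± 0.44 in between. Neighbours in this order overlapped. Rabbit 2 had the highest value in 5 of the 6 groups and rabbit 5 the lowest in 5.

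At T24, B2M in mock-stimulated PBMCs was 10.14, 10.55, 10.16 and 8.75, and after LPS 9.43, 9.79, 8.99 and 9.15. The LPS value was lower in rabbits 1, 2 and 4, by 0.71 to 1.17, and higher in rabbit 5, with a mean difference of -0.56 ± 0.34 (SE, adjusted p = 0.611). After PMA-Ionomycin at T24 the values were 10.42, 10.85, 10.04 and 9.77, and the difference from mock was 0.37 ± 0.34 (SE, 95% interval -0.33 to 1.06, adjusted p = 0.502). At T4 the difference was 0.35 ± 0.34 (SE, adjusted p = 0.606) for PMA-Ionomycin and 0.14 ± 0.34 (SE, adjusted p = 0.869) for LPS. The 5 probes moved together, with Pearson r of 0.99 to 1.00 for the 10 pairs over 24 arrays, and they are readings of one transcript, not replicates.

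PDIA3 encodes ERp57, which is bound to tapasin in the loading complex. Its mean level stayed between 3.71 ± 0.40 (SD, n = 4) after LPS at T4 and 4.21 ± 0.32 after LPS at T24. The other means were 3.80 ± 0.62 for PMA-Ionomycin T4, 3.85 ± 0.21 for mock T4, 4.02 ± 0.28 for mock T24 and 4.20 ± 0.12 for PMA-Ionomycin T24, and all neighbours overlapped. No comparison passed the test, and the adjusted p was 0.645 or more in all 7.

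The 2 PDIA3 probes did not behave alike. After PMA-Ionomycin at T4, the probe at bases 1449 to 1508 read 5.07 in rabbit 1 and 3.07, 3.34 and 3.30 in rabbits 2, 4 and 5. The probe at bases 1389 to 1448 read 4.36, 3.74, 3.64 and 3.87. Rabbit 1 stood above the other rabbits on the former probe in all 3 groups of T4, and clearly on the latter after PMA-Ionomycin only. The probes correlated with r = 0.59 over 24 arrays.

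**Figure D3:**
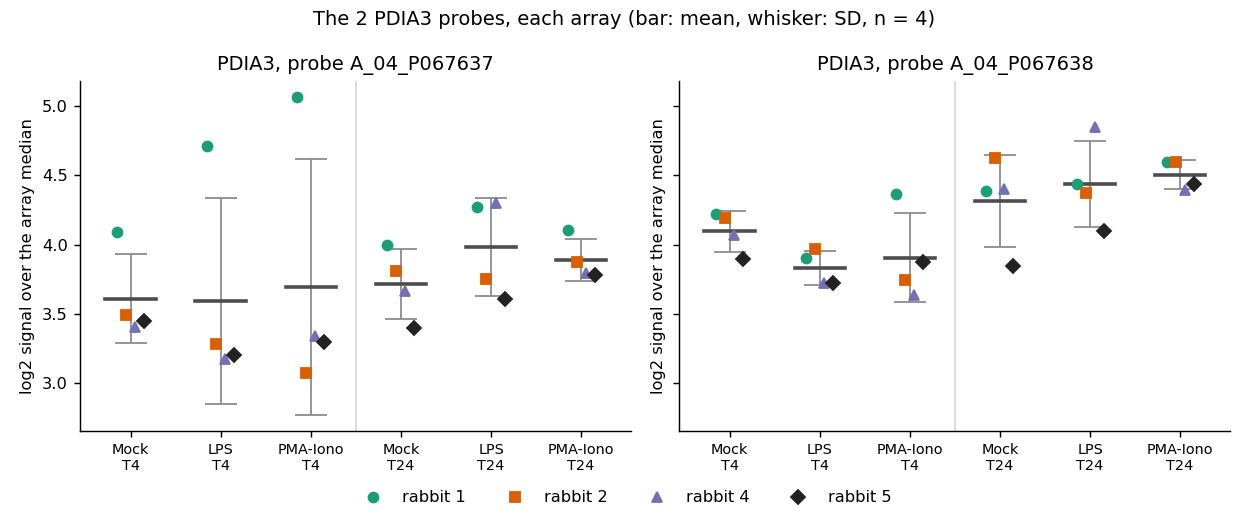
Log2 signal over the array median (vertical axis) of the 2 PDIA3 probes in each group, with 1 point per rabbit, the mean as a bar and the SD as whiskers (n = 4). On the left probe, rabbit 1 at T4 reads 4.09 (mock), 4.71 (LPS) and 5.07 (PMA-Ionomycin), above the other rabbits, and on the right probe its values of 4.22, 3.90 and 4.36 lie closer to them.

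Over the 24 arrays, which share rabbits and slides, Pearson r between pairs of members ranged from -0.22 for B2M and CANX to 0.36 for CANX and PDIA3. After subtraction of the group means, TAP1 and CANX had the highest value, 0.59. Among 4208 other genes with a symbol that were well above background on all arrays, those most like TAP1 included WARS1 (r = 0.89) and SHMT2 (0.87). Those most like CANX were CSTF1 (0.93), MEA1 (0.93) and FKBP1C (0.93), those most like B2M were CD2 (0.80), HERC4 (0.79) and YIPF6 (0.76), and those most like PDIA3 were PHYHIP (0.75), EEF1AKMT2 (0.74) and MRAS (0.73). These values describe the 24 arrays and were not tested.

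Peptides reach TAP from the proteasome, in which activated cells exchange the constitutive catalytic subunits for PSMB8, PSMB9 and PSMB10 and add the PA28 activator, made of PSME1 and PSME2. Of these 5 genes, 4 were down-regulated after PMA-Ionomycin at T4, where 9.33% of all genes fell and 13.4% rose. At T24, 2 of the 5 were up-regulated, where 22.1% of all genes rose and 11.5% fell. In the T4 comparison 3 of 7 monocyte markers, 2 of 5 B cell markers, 3 of 3 platelet markers and PRF1, the NK cell marker, fell as well, and 1 B cell marker rose. The summed monocyte level, the log2 of the signals of the 7 markers added before the log, was 7.17 to 8.38 in mock and 5.66 to 6.53 after PMA-Ionomycin. Such a sum follows its brightest marker most, here CD14, with a mean of 7.38 in mock against 7.80 for the sum. The part of cell composition was not tested. PSMB9, whose gene neighbours TAP1, had mean levels of 7.38 ± 0.59 (SD, n = 4) in mock and 6.39 ± 0.17 after PMA-Ionomycin at T4, and of 6.09 ± 0.46 and 8.34 ± 0.10 at T24. It fell by 0.99 ± 0.30 on the log2 scale at T4 (SE, adjusted p = 0.0184) and rose 4.77-fold at T24 (2.25 ± 0.30, SE, adjusted p = 2e-06). Both held in 4 of 4 rabbits, but the T4 call was lost without rabbit 1 or 4.

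PSMB8, cited here after its values were seen, fell by 1.60 ± 0.28 at T4 (SE, adjusted p = 0.000143) and differed from mock by 0.14 ± 0.28 at T24 (adjusted p = 0.832). PSME2 fell by 1.58 ± 0.29 at T4 (SE, adjusted p = 0.000203), with 0.31 ± 0.29 at T24 (adjusted p = 0.52). PSME1 fell by 0.64 ± 0.22 at T4 (SE, adjusted p = 0.0322) and rose by 0.56 ± 0.22 at T24 (adjusted p = 0.0491), but the T4 call was lost without rabbit 1, 2 or 5, and the T24 call was lost without any 1 rabbit and turned to -0.020 with quantile normalization. PSMB10 was not called at T4 (-0.74, adjusted p = 0.0721) or T24 (-0.42, adjusted p = 0.323), but 8 of 18 alternatives called it lower at T4, for example quantile normalization (-0.92, adjusted p = 0.00839). The change in the effect from T4 to T24 passed the test for PSMB9 (3.24 ± 0.43, SE, adjusted p = 4.44e-06), PSME2 (1.88 ± 0.41, adjusted p = 0.00125), PSMB8 (1.73 ± 0.40, adjusted p = 0.00226) and PSME1 (1.20 ± 0.30, adjusted p = 0.00489), the last of which lost the call without rabbit 5 (0.81, adjusted p = 0.075).

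**Figure D4:**
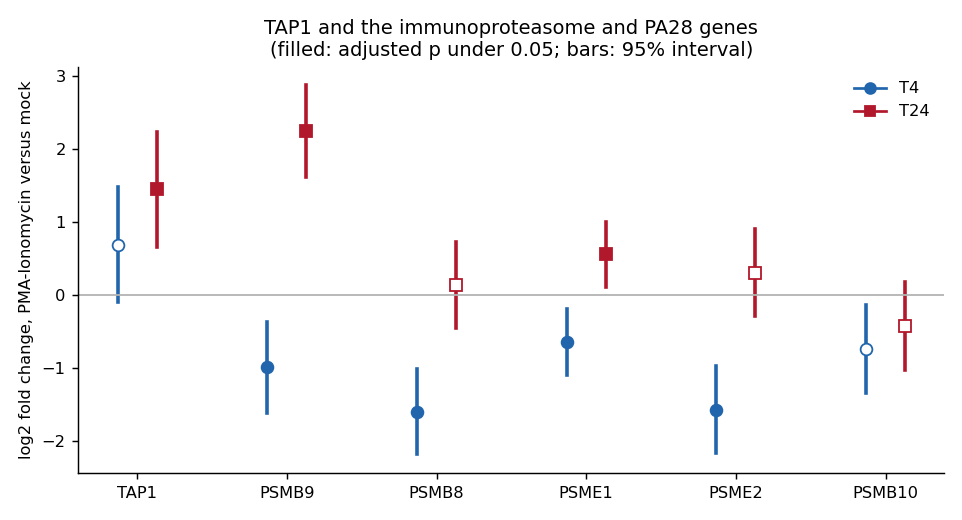
Log2 fold change of PMA-Ionomycin against mock (vertical axis) at T4 (circles) and T24 (squares) for TAP1 and 5 proteasome genes, with 95% intervals as bars and filled symbols where the adjusted p was under 0.05 (4 rabbits in each group). TAP1 lies above 0 at both times, at 0.69 and 1.45, whereas PSMB9 goes from -0.99 to 2.25.

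The TAP1 probe lies 14053 bases from that of PSMB9 (chr12:23377365-23377424, plus strand) and 3943 bases from that of PSMB8 (chr12:23359095-23359308, minus strand), and all 3 genes belong to the MHC. Over the 24 arrays TAP1 had r = 0.36 with PSMB9 and r = 0.002 with PSMB8. Within the groups, after their means were subtracted, r was 0.41 with PSMB9 and 0.93 with PSMB8. In the mock comparison of T24 with T4, PSMB9 fell by 1.30 ± 0.30 (SE, adjusted p = 0.00454), beside -1.14 for TAP1. Without rabbit 1 that call of PSMB9 was lost.

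Of the heavy chains, RLA-A2 and RLA-A3 were found by name, and class I genes under other names were not used here. They are closely related genes whose probes may also bind transcripts of one another. Neither was called in any of the 7 comparisons. After PMA-Ionomycin at T24, RLA-A2 differed from mock by -0.50 ± 0.34 (SE, adjusted p = 0.322) and RLA-A3 by -0.21 ± 0.28 (adjusted p = 0.685), whereas with quantile normalization both were called, at -0.99 and -0.74. None of the constitutive catalytic subunits PSMB5, PSMB6 and PSMB7 was called in any comparison. Of 6 genes of peptide trimming and editing that were found, 1 rose and 2 fell after PMA-Ionomycin at T24, against 22.1 and 11.5% of all genes. TPP2, a cytosolic peptidase, rose by 0.66 ± 0.11 (SE, adjusted p = 3.01e-05), but by 0.39 with the processed signal and 0.24 with normexp and quantile normalization, which both ended the call. TAPBPL, the tapasin-like peptide editor, fell by 1.27 ± 0.22 (SE, adjusted p = 5.13e-05), and LNPEP, an aminopeptidase of endosomes, fell by 0.57 ± 0.19 (adjusted p = 0.0221), a call lost without rabbit 1 or 5, with normexp and quantile normalization (-0.41) and with a required fold change of 1.5. LNPEP was dim, well above background on 3 of 4 arrays after PMA-Ionomycin, and its difference ran from -1.49 to -0.38 over the 18 alternatives.

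Of 10 regulators of class I genes found, 4 rose and 5 fell after PMA-Ionomycin at T24, or 3 and 5 without IFNG, whose probes disagreed (of all genes, 22.1% rose and 11.5% fell). NLRC5, the transactivator of class I promoters, was at least 1.64-fold higher than in mock-stimulated PBMCs, where it was not well above background on any array (adjusted p = 3.54e-05). For this bound the mock value on each array was taken as the dimmest signal still well above background there, or as that of NLRC5 where it was brighter. The measured log2 difference was 0.75, and 0.50 to 2.20 over 18 alternatives, the lowest of them (normexp with quantile normalization) being under the bound. IFNG, the cytokine that induces many of these genes, is among the 4 by the mean of its 2 probes, but these went opposite ways and their mean is not given as a level. The IFNG probe added through the gene list of the study was not well above background in mock and at least 12.99-fold higher after PMA-Ionomycin (adjusted p = 5.26e-09 over all probes). The other IFNG probe was well above background on all 4 arrays of both groups and had a log2 difference of -1.34 ± 0.27 (SE, adjusted p = 0.000361). The call on the mean of both was lost with normexp and quantile normalization (adjusted p = 0.0757), so that the direction of IFNG was not settled by these probes. The interferon-gamma receptor chains fell, IFNGR2 by 3.70 ± 0.25 (SE, adjusted p = 4.28e-11) and IFNGR1 by 2.59 ± 0.37 (adjusted p = 4.94e-06). The monocyte markers CD14 and CSF1R fell beside them, by 3.27 ± 0.33 (SE, adjusted p = 3.2e-08) and 3.29 ± 0.35 (adjusted p = 7.52e-08). IFNGR2 and IFNGR1 had also fallen after LPS at T4, by 1.10 ± 0.25 (SE, adjusted p = 0.0398) and 1.69 ± 0.37 (adjusted p = 0.0384), and these were the only genes of the 7 pathway lists called there. The LPS call was lost without any 1 rabbit for IFNGR1 and without rabbit 2, 4 or 5 for IFNGR2. Without rabbit 4 the adjusted p was 0.484 for IFNGR1 and 0.586 for IFNGR2. Both calls were also lost with other scalings, for example the processed signal (adjusted p = 0.108 and 0.118). CD14 and CSF1R also fell after LPS at T4, by 1.55 ± 0.33 (SE, adjusted p = 0.0373) and 1.44 ± 0.35 (adjusted p = 0.0493). They were the only 2 called of the 7 monocyte markers found, against 1.02% of all genes. No gene at all was called there without rabbit 2 or 4, or with only the arrays compared. The summed monocyte level of 6.12 to 6.86 after LPS lay below that of mock. The part of monocytes in the receptor values, at T4 or T24, was not tested.

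CANX and PDIA3 are also part of the general folding machinery of the ER. Of 9 other ER chaperones and folding enzymes found, none rose and 1 fell after PMA-Ionomycin at T24, ERP29 by 1.12 ± 0.40 (SE, adjusted p = 0.0304), a call that was lost without rabbit 1, 2 or 5. HSP90B1, the ER form of HSP90, differed by 0.49 ± 0.19 (SE, adjusted p = 0.0532), was called with the rabbit as a block (adjusted p = 0.0185) and turned to -0.16 with quantile normalization. After LPS at T24 the only called gene of the 7 lists was SEC61A1, a subunit of the ER translocon, which rose by 1.11 ± 0.26 (SE, adjusted p = 0.0297) and lost the call without any 1 rabbit. Of 8 genes of the unfolded protein response found, 1 rose and 5 fell after PMA-Ionomycin at T24, against 22.1 and 11.5% of all genes. ATF4, a stress-induced transcription factor, rose by 0.86 ± 0.16 (SE, adjusted p = 0.000152), but by 0.21 with quantile normalization, which ended the call. EIF2AK3, the ER stress kinase PERK, fell (adjusted p = 8.47e-05), and 3 of its 5 probes were not well above background on any array after PMA-Ionomycin, so that these were at least 1.44- to 1.81-fold lower. HERPUD1, of ER-associated degradation, fell by 1.36 ± 0.26 (adjusted p = 0.000218), and DNAJB9, an ER co-chaperone, fell by 0.65 ± 0.16 (adjusted p = 0.00201), a call lost without rabbit 4. At T4, 2 of the 9 ER chaperones had risen and none fallen, and 2 of the 8 unfolded protein response genes had risen, DNAJB9 among them, and 1 had fallen, against 13.4% of all genes risen and 9.33% fallen. The median log2 difference at T24 was 0.27 over the 4 members, 0.31 over the immunoproteasome and PA28 genes, 0.44 over the ER chaperones, -0.65 over the unfolded protein response and 0.03 over all genes.

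Markers of blood cell types moved beside the T24 rise of TAP1. The summed level of 7 monocyte markers found of 10 was 8.47 to 9.78 in mock and 6.13 to 7.05 after PMA-Ionomycin at T24. CD14 weighed most in it, with a mean of 8.75 in mock against 9.29 for the sum. Of the 7 markers 5 fell, among them CD14 and CSF1R. The summed level of 8 T cell markers found of 11 was 3.52 to 4.13 in mock and 3.86 to 4.13 after PMA-Ionomycin, with 1 risen and 2 fallen. CD3D, CD3E and CD3G were not found, and CD4 was not well above background on any array of either group. CD247 was not well above background on any array after PMA-Ionomycin. Of the other lists, 1 of 5 B cell markers rose and 2 fell, the only NK cell marker found, PRF1, rose, none of 3 platelet markers was called, 2 of 4 neutrophil markers fell, and 1 of 3 erythrocyte markers fell. Of all genes, 22.1% rose and 11.5% fell in this comparison. In mock-stimulated PBMCs the monocyte sum was 7.17 to 8.38 at T4, and 5 of the 7 markers rose from T4 to T24. Of all genes, 12.5% were called between the mock times in either direction. The part of cell composition in the TAP1 difference was not tested.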

How the data were processed

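RNA of PBMC cultures was labelled with Cy3 and hybridised to one-colour Agilent arrays. The authors deposited the output of Agilent Feature Extraction 10.7.3.1, in which median, mean and background signals are spot intensities not scaled between arrays. A log2 table was deposited too, in which each log2 median signal has the average of its array subtracted (largest difference from a recalculation 5e-09). The grid used oryCun2, per the file headers.

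Log2 median signals were centred on the median of the 61657 non-control spots. Spots marked as outliers (280 to 370 per array) were left out, and spots were averaged per probe (42089 probes) and probes per gene. Of the probes, 11506 were named by RefSeq accession, 8929 by gene number, 439 by the gene list of the study and 71 by gene name, through RefSeq names for mOryCun1.1, and 21144 kept their identifier. limma 3.58.1 (lmFit, eBayes) in R 4.3.3 then fitted the 6 group means to the 24 arrays together, a step tested on simulated data. Tables were handled with data.table (version 1.17.8) and Python 3.11.15 (numpy 2.4.6, pandas 2.3.3), and plots drawn with matplotlib 3.10.9. LPS and PMA-Ionomycin were each compared with mock of T4 and of T24, mock of T24 with that of T4, and the interactions of stimulation and time were tested. Positions come from the files only. The number of arrays limits the precision.

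The members, defined by name, and the lists were chosen with earlier results of these data known. Named are all members, at most 4 genes of a pathway list with the smallest adjusted p after PMA-Ionomycin at T24, PSMB8, genes called after LPS, and for each member the 3 genes most correlated with it, of which 1 for TAP1 is not reported here. Rabbit numbers mark the same animals: after subtraction of group means, the median r was 0.23 for 60 pairs of arrays from one rabbit and -0.08 for 180 pairs from different rabbits. The methods of the study use no block, and blocking on the rabbit was one alternative. Further alternatives were mean centring, quantile normalization with or without normexp (offset 50), the deposited table, the processed signal at its 75th percentile, outlier spots kept, dim probes left out, single probes, only the arrays compared, array weights, the slide as a block, trended robust eBayes, an added fold change of 1.5, and each rabbit left out. Promoters of the members were not analysed here.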

Additional observations from a re-analysis of the deposited data

Results flagged for a closer look

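PDIA3 after PMA-Ionomycin at T4 had one value far from the others: rabbit 1 read 4.72 and the other rabbits 3.41 to 3.59, a gap of 0.86 of the range of the group. PSMB9 in the same group read 6.14 in rabbit 2 and 6.46 to 6.49 in the others, a gap of 0.93 of the range. Chance marks about 5 in 100 such groups, and 30 groups of 4 arrays were examined, of which 2 were marked.

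The effect of PMA-Ionomycin differed between T4 and T24, as tested by the interaction, for PSMB9 (3.24), PSME2 (1.88), PSMB8 (1.73) and PSME1 (1.20), each positive in 4 of 4 rabbits. Without rabbit 5 the call on PSME1 was lost (0.81, adjusted p = 0.075). For TAP1 the same test gave 0.76 and was not passed (adjusted p = 0.408).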

How the results depend on the processing

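TAP1 after PMA-Ionomycin at T24 was called in all 18 alternatives, with log2 differences of 0.98 to 1.85 and adjusted p of 0.00128 to 0.047, and of 1.16 to 1.85 with each rabbit left out. For LPS at T4 and T24 no alternative called a member. For mock at T24 against T4, 1 member, TAP1, was called with quantile normalization, the processed signal, normexp with quantile normalization, dim probes left out, only the arrays compared, the slide as a block and single probes. With a rabbit left out the count was 0 to 1 (TAP1 without rabbit 2 and CANX without rabbit 5). With array weights 2 members were called for PMA-Ionomycin at T4 (TAP1, CANX), and 1 (CANX) in each interaction. With the rabbit as a block, which uses the pairing, 1 member (TAP1) was called between mock times and 1 (CANX) in the interaction of LPS and time, and no other call on a member changed. The causes were not tested.

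Signs turned for small differences. Under quantile normalization, the processed signal and normexp, in this order, PDIA3 became 0.0066, 0.11 and 0.053 for LPS at T4. It became -0.30, -0.13 and -0.31 after PMA-Ionomycin at T24 and -0.058, -0.0027 and -0.11 in the PMA-Ionomycin interaction. B2M in that interaction became -0.039, -0.18 and -0.033, then -0.052 with the deposited table, -0.054 with mean centring and -0.18 with array weights, and ranged from -0.25 to 0.35 with a rabbit left out. For PMA-Ionomycin at T24, PSMB8 became -0.29, -0.15 and -0.28, -0.011 with the deposited table and -0.013 with mean centring, and ranged from -0.059 to 0.41 with a rabbit left out. With quantile normalization and normexp there, PSME1 was -0.020 and -0.045, PSME2 -0.33 and -0.32, and HSP90B1 -0.16 and -0.14, and RLA-A2, RLA-A3 and PSMB10 were called lower. With a rabbit left out, TAP1 for LPS at T24 ranged from -0.044 to 0.56, PDIA3 for PMA-Ionomycin at T4 from -0.26 to 0.074, and RLA-A3 at T24 from -0.38 to 0.0039.

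Over all genes, LPS counts moved most: 296 at T4, from 0 (only the arrays compared, or without rabbit 2 or 4) to 1229 (rabbit block), 354 at T24, from 47 (only the arrays compared) to 859 (array weights), and 562 in the interaction, from 7 (without rabbit 2) to 2045 (array weights). Mock times gave 3625, with 2274 without rabbit 2, 2330 without rabbit 1, 2372 without rabbit 4 and, with 42089 single probes tested in place of 28890 genes, 5799, a setting that gave 10005 for PMA-Ionomycin at T4 and 9951 in its interaction. Of the calls for PMA-Ionomycin at T24, 65.8% were higher, against 46.3% with the processed signal, where the median of all genes was -0.26 instead of 0.03, and 50.7 to 52.9% with mean centring, the deposited table and both quantile normalizations. With the processed signal this share was 47.1% instead of 59.0% for PMA-Ionomycin at T4. The number of arrays and the signal over background limit what can be seen for dim probes.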
